A study of Homo sapiens with 3 samples.

Results

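Aminoacyl-tRNA synthetases were examined by single-cell RNA sequencing in OVCAR3, an established line of human HGSOC (high-grade serous ovarian cancer). The members were taken by symbol, as every gene of 1 amino acid letter followed by ARS (with or without a closing 1 or 2), together with EPRS, FARSA, FARSB and TARSL2. The rule found 38 of the 36601 genes counted, of which 21 encode cytosolic and 17 mitochondrial enzymes. Symbols ending in 2 were taken as mitochondrial, except TARSL2 (now TARS3), which encodes a cytosolic threonyl-tRNA synthetase-like protein. Cells had been cultured for 48 h with DMSO, the solvent of both inhibitors, with 50 μM of the RAC1 inhibitor NSC23766 (RAC1i), or with 50 μM NSC23766 and 5 μM of the EZH2 inhibitor GSK126 (Combo). Each condition had 1 library and no replicate, so a difference between conditions cannot be told apart from one between cultures, and none was tested. GSK126 alone was not analysed here.

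Aminoacyl-tRNA synthetases join each amino acid to its tRNA, the step at which the genetic code is read, and they are needed in every dividing cell. The cytosol and the mitochondrion each have their own set, all encoded in the nucleus, and a few genes such as GARS and KARS serve both compartments. Several cytosolic enzymes are held together in the multisynthetase complex by the scaffold proteins AIMP1, AIMP2 and EEF1E1. Many cytosolic synthetase genes are known targets of ATF4, the transcription factor of the integrated stress response, which also drives genes of amino acid synthesis and transport and binds a composite C/EBP-ATF element.

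That element, searched as TGATGCAA on either strand, is shown because several cytosolic promoters, and no mitochondrial one of those searched, held it. Promoter windows from 250 bases before to 50 bases after the start (RefSeq, GRCh38.p14) matched 30 members, 16 cytosolic and 14 mitochondrial. TGATGCAA was found in windows of 6 cytosolic members and 0 mitochondrial ones, and it lay in 0.866% of all 35116 windows and in 0.538% of the 11517 windows of genes with a mean of at least 5 CPM here (counts per 1000000, defined below). With 1 base left free (TGATGNAA, which includes TGATGCAA), GARS1 and YARS2 also matched, against 3.62% of all windows and 1.89% of those of measured genes. The stretches below run 5′ to 3′ along each gene's own strand with the match in capitals, which reads TTGCATCA where the element lies on the opposite strand (TTTCATCA in GARS1):
IARS1: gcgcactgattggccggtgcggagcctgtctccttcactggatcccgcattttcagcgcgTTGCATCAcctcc
AARS1: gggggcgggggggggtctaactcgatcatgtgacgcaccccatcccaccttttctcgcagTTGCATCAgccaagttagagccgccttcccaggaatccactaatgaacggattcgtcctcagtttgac
CARS1: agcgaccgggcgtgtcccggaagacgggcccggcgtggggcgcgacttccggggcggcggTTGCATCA
MARS1: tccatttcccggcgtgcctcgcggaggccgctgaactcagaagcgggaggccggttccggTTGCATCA
TARS1: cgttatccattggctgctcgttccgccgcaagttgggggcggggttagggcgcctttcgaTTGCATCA
NARS1: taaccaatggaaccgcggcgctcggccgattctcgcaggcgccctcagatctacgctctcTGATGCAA
GARS1: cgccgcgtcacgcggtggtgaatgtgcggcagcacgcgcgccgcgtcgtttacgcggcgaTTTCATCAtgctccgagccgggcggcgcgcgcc
They lie at chr9:92293698-92293770 (- strand), chr16:70289626-70289753 (- strand), chr11:3057418-3057485 (- strand), chr12:57488004-57488071 (+ strand), chr5:33440907-33440974 (+ strand), chr18:57621815-57621882 (- strand) and chr7:30594785-30594877 (+ strand). The match began 13 bases before the start of IARS1, 33 before that of GARS1 and 187 before that of AARS1, lay across the start of CARS1 and MARS1, and followed it in TARS1 and NARS1. A match is a run of letters and not a measured binding site. LARS1, TARS3, VARS1, YARS1, AARS2 and VARS2 were among the members not matched.

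Expression was taken as unique molecular identifiers (UMIs, one per captured mRNA 3′ end) added up across all kept cells per library and given per 1000000 UMIs (CPM), which is a share of all UMIs and was not divided by gene length because each molecule is tagged once. The kept cells numbered 7531 in DMSO, 10215 in RAC1i and 8239 in Combo, with 199063947 to 234969742 UMIs a library and medians of 20989 to 26750 UMIs a cell. Between 15 and 23 cell barcodes were shared by a pair of libraries. The median share of UMIs from the mitochondrial genome was 5.60% for DMSO cells, against 1.66% and 1.58% for RAC1i and Combo. All 7 serous ovarian markers were above 5 CPM in each library, but 4 of them (KRT7, MUC16, PAX8 and WT1) were lower by over 1.5-fold in both treated libraries, with a median log2 ratio to DMSO over the 7 of -1.34 in RAC1i and -1.03 in Combo. PAX8, the lineage factor of this tumour, was at 355, 54.3 and 47.8 CPM in DMSO, RAC1i and Combo, and the 8 markers of blood, fibroblasts and endothelium summed to 6.94, 8.13 and 7.98 CPM, of which COL1A1 made up 5.51, 5.69 and 5.58.

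All 38 members had UMIs in all 3 libraries, and 32 of them, 20 cytosolic and 12 mitochondrial, had a mean of at least 5 CPM. The 6 below that level were TARSL2, AARS2, EARS2, MARS2, PARS2 and VARS2. In DMSO cells the cytosolic members summed to 1805 CPM (95% Poisson interval 1799 to 1811) and the mitochondrial members to 317 CPM (314 to 319). The most abundant were TARS at 313 CPM, EPRS at 235 and LARS at 155, which charge threonine, glutamate with proline, and leucine. IARS2, the mitochondrial isoleucyl enzyme, was the highest mitochondrial member at 100.5 CPM and stood above its cytosolic counterpart IARS at 53.8 CPM, and YARS2 at 42.1 CPM stood above YARS at 38.4. In the other 13 cytosolic and mitochondrial pairs the cytosolic gene was the higher in DMSO.

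**Figure D1:**
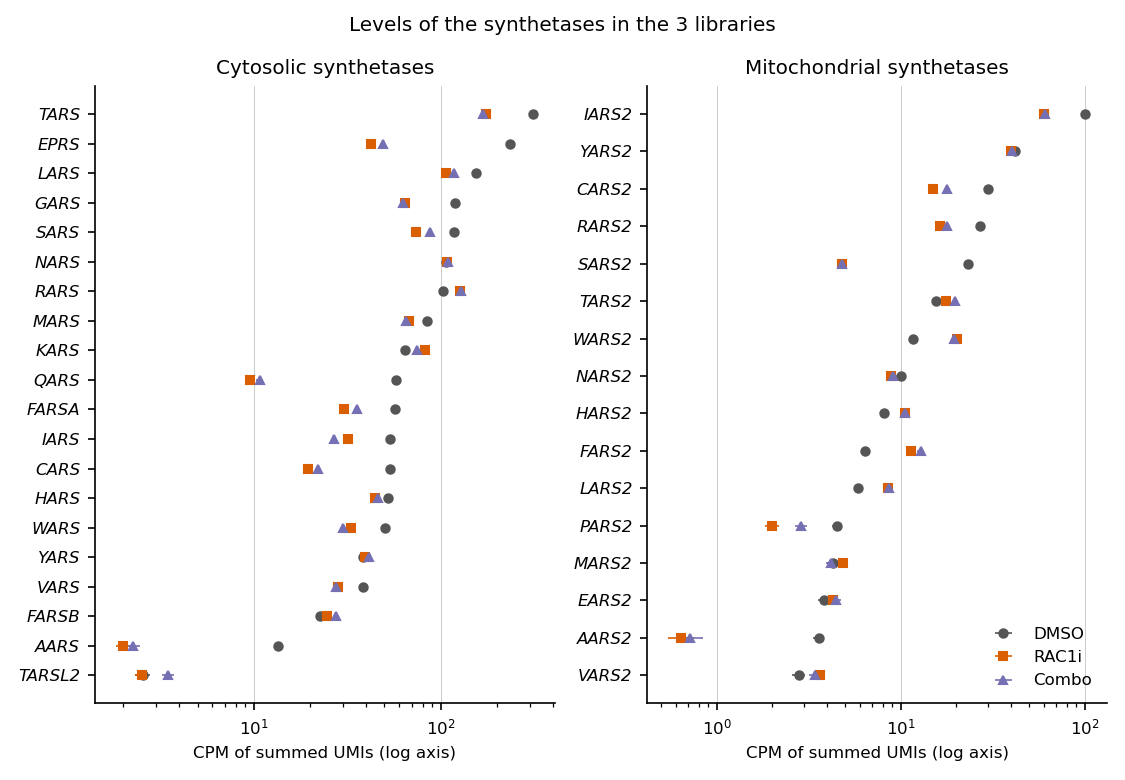
Level of 36 of the 38 synthetase genes in DMSO (circles), RAC1i (squares) and Combo (triangles), as CPM of UMIs summed over kept cells on a log axis, with 95% Poisson intervals that cover counting error only. RAC1i and Combo lie close to each other, and far below DMSO for AARS, EPRS, QARS, SARS2 and AARS2.

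In RAC1i and Combo cells the cytosolic set made up a smaller share of the transcriptome than in DMSO. The cytosolic sum was 1805 CPM in DMSO, 1176 (1172 to 1181) in RAC1i and 1193 (1188 to 1197) in Combo, a ratio to DMSO of 0.652 (95% interval 0.649 to 0.655) and 0.661 (0.658 to 0.664). The mitochondrial sum was 317, 241 (239 to 243) and 248 (246 to 251) CPM, a ratio of 0.760 (0.751 to 0.768) and 0.784 (0.775 to 0.793). Cytosolic UMIs per mitochondrial UMI were therefore 5.70 (5.65 to 5.74) in DMSO, 4.89 (4.84 to 4.93) in RAC1i and 4.80 (4.76 to 4.85) in Combo, with intervals that did not overlap between DMSO and the treated libraries. These intervals, here and below, cover counting error only, since UMIs of 1 culture are not independent samples of a condition. EPRS alone supplied 235 CPM of the cytosolic sum for DMSO cells, but only 42.4 for RAC1i cells and 48.9 for Combo cells. The lower cytosolic sums, and the fewer cytosolic UMIs per mitochondrial UMI, thus lean in part on this gene.

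The median cytosolic gene stood below the median of all genes, while the place of the median mitochondrial gene depended on the minimum level and, in Combo, on thinning or averaging cells. The median log2 ratio of RAC1i over DMSO was -0.58 over the 20 measured cytosolic members, -0.14 over the 12 mitochondrial ones and -0.18 over all 9745 genes with at least 5 CPM. For Combo over DMSO, which shares the DMSO library, the medians were -0.46, -0.11 and -0.15. Scaling by TMM or DESeq2 size factors, which sets the median of all genes near 0, left the cytosolic median of RAC1i over DMSO at -0.39 and -0.40 but turned the mitochondrial one to 0.05 under both, so the sign of the mitochondrial median turned with the scaling. At a minimum of 20 CPM only 4 mitochondrial members remained (CARS2, IARS2, RARS2 and YARS2), with medians of -0.73 in RAC1i and -0.65 in Combo against -0.02 and 0.003 over the 5564 genes left, and the cytosolic medians were -0.53 and -0.43.

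At a fixed size of 1.5-fold, 14 of the 32 measured members (43.8%) were lower in RAC1i than in DMSO, where 35.8% of all genes were, and 2 members (6.25%) were higher, where 22.6% of all genes were. The lower ones were AARS, CARS, EPRS, FARSA, GARS, IARS, QARS, SARS, TARS and WARS of the cytosolic set and CARS2, IARS2, RARS2 and SARS2 of the mitochondrial one. The higher ones, FARS2 and WARS2, were both mitochondrial, but neither passed 1.5-fold with a mean over cells (log2 ratios of 0.56 and 0.58) and WARS2 did not with thinned cells (0.55). In Combo over DMSO 14 members were also lower, against 34.0% of all genes, and FARS2 and WARS2 were higher, against 21.5% of all genes. WARS2 fell short there with a mean over cells (0.47), where LARS2 passed instead (0.62), and with thinned cells (0.47). SARS was not among the lower ones there. With TMM or DESeq2 size factors 9 members were lower in each of these comparisons, against 29.8% of all genes in RAC1i under both and 28.5% and 28.8% in Combo. No count of members is read as particular to the synthetases, since the share lower lay near that of all genes.

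**Figure D2:**
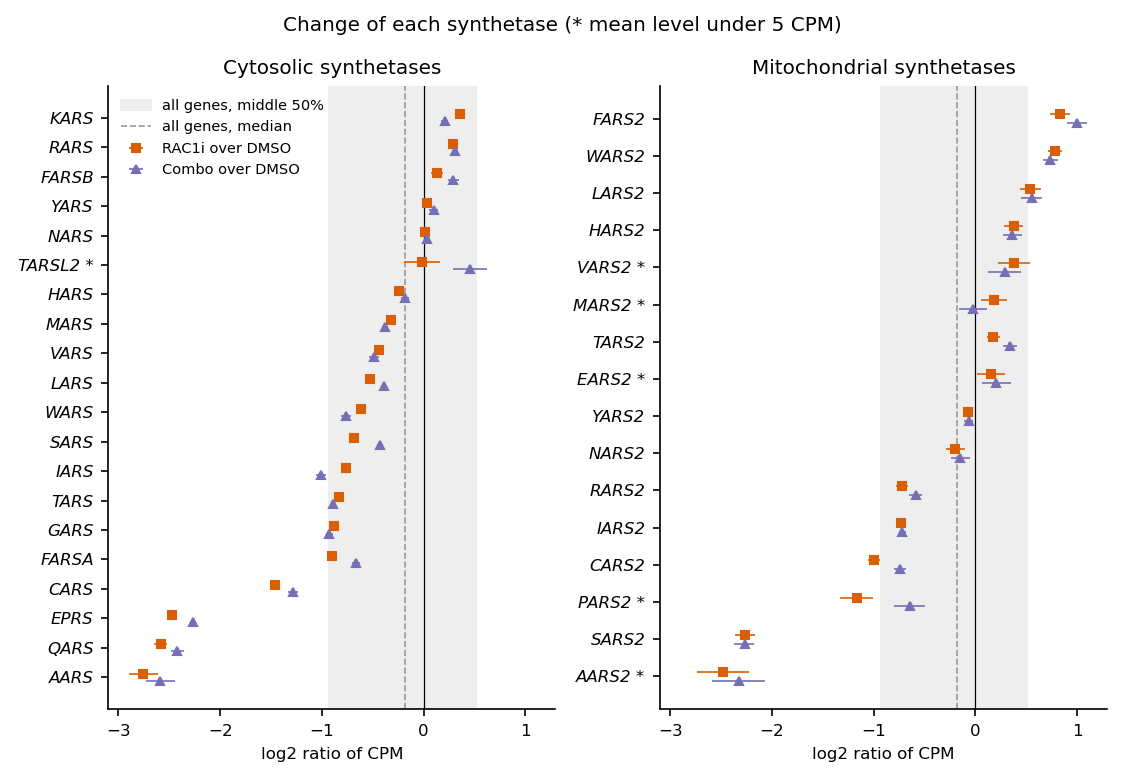
Log2 ratio of CPM for 36 synthetases in RAC1i (squares) and Combo (triangles) over DMSO, with 95% intervals that cover counting error only. The grey band holds the middle 50% of all genes in RAC1i over DMSO and the dashed line their median of -0.18; AARS, QARS, EPRS, SARS2 and AARS2 lie beyond -2 and FARS2 and WARS2 are the farthest to the right.

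A few members stood far below the rest. AARS, which charges alanine, was at 13.5 CPM in DMSO, 2.00 in RAC1i and 2.25 in Combo, a log2 ratio to DMSO of -2.75 (-2.90 to -2.61) and -2.59 (-2.73 to -2.45). QARS, which charges glutamine, was at 57.4, 9.57 and 10.7 CPM, with log2 ratios of -2.58 (-2.65 to -2.52) and -2.42 (-2.48 to -2.35). EPRS, 1 protein that charges both glutamate and proline, was at 235, 42.4 and 48.9 CPM, with log2 ratios of -2.47 (-2.50 to -2.44) and -2.26 (-2.29 to -2.23). In RAC1i these 3 lay at the 1.60, 2.11 and 2.62 percentile of all genes. The difference in CPM between DMSO and RAC1i was larger for EPRS than for any other member. Among mitochondrial members SARS2, the seryl enzyme, was at 23.2, 4.83 and 4.81 CPM (log2 ratio of RAC1i over DMSO -2.26, -2.36 to -2.17). AARS2, the alanyl enzyme, was under the 5 CPM minimum at 3.58, 0.643 and 0.714 CPM (-2.48, -2.74 to -2.22), so both alanyl enzymes stood low.

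The remaining lower cytosolic members differed from DMSO by a smaller fold, and by less than 1.5-fold between RAC1i and Combo. CARS, the cysteinyl enzyme, was at 53.6, 19.5 and 22.0 CPM in DMSO, RAC1i and Combo. TARS was still the most abundant synthetase in every library, at 313, 175 and 168 CPM. GARS, which charges glycine in both compartments, was at 119, 64.6 and 62.5 CPM. SARS, IARS and WARS, for serine, isoleucine and tryptophan, had log2 ratios in RAC1i of -0.68, -0.76 and -0.62, and in Combo of -0.43, -1.01 and -0.76. LARS, VARS, MARS and HARS, for leucine, valine, methionine and histidine, stood between -0.53 and -0.25 in RAC1i and did not reach 1.5-fold in either treated library.

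The other cytosolic members stood near or above their DMSO level. KARS, the lysyl enzyme of both compartments, was at 64.7 CPM in DMSO, 82.6 in RAC1i and 74.7 in Combo. RARS, the arginyl enzyme, was at 103 CPM in DMSO, 127 in RAC1i and 128 in Combo. Both were above DMSO under every scaling and cell filter tried. NARS, the asparaginyl enzyme, was nearly level at 107, 109 and 110 CPM. YARS (38.4, 39.4 and 41.2 CPM) was within 1.5-fold, as was TARSL2 (2.54, 2.51 and 3.48), and the sign for NARS, YARS and TARSL2 in RAC1i over DMSO changed with the scaling or with the cells used.

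Phenylalanyl-tRNA synthetase gave a difference between the genes of 1 enzyme, which is built of FARSA (alpha) and FARSB (beta) subunits in the cytosol. FARSA was at 56.7, 30.3 and 35.8 CPM in DMSO, RAC1i and Combo, and FARSB at 22.6, 24.7 and 27.6 CPM. The log2 ratio in RAC1i was -0.90 (-0.95 to -0.86) for FARSA and 0.13 (0.08 to 0.19) for FARSB, where the sign of FARSB turned with cells thinned to 5000 UMIs or with a mean over cells. FARS2, the single-chain mitochondrial enzyme, was at 6.43, 11.4 and 12.8 CPM and was higher in both treated libraries, with log2 ratios of 0.83 (0.73 to 0.93) and 1.00 (0.90 to 1.09).

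The mitochondrial set was spread in both directions. IARS2 was at 100.5, 60.4 and 61.2 CPM, CARS2 at 29.8, 15.0 and 17.9, and RARS2 at 26.9, 16.3 and 17.9. On the other side WARS2, the mitochondrial tryptophanyl enzyme, was at 11.7, 20.2 and 19.6 CPM, a log2 ratio of 0.78 (0.71 to 0.85) and 0.74 (0.66 to 0.81). LARS2 (5.90, 8.57 and 8.65 CPM) and HARS2 (8.16, 10.6 and 10.5) were above DMSO by less than 1.5-fold. YARS2, NARS2 and TARS2 had log2 ratios of -0.08, -0.20 and 0.18 in RAC1i, where those of YARS2 and TARS2 changed sign under at least 1 alternative. Of the members under 5 CPM, PARS2 was at 4.50, 2.00 and 2.88 CPM, while EARS2, MARS2 and VARS2 stayed between 2.79 and 4.85 CPM in the 3 libraries.

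Set against its mitochondrial partner for the same amino acid, the cytosolic gene was the one with the lower ratio in 10 of 15 pairs in RAC1i and in 10 of 15 in Combo. No minimum level was set for these pairs. Those of AARS2, MARS2 and VARS2, each under 5 CPM, all had the cytosolic gene lower. The difference of IARS and IARS2 was only -0.02 in RAC1i. The median difference of log2 ratios, cytosolic minus mitochondrial, was -0.46 in RAC1i and -0.35 in Combo. It was most negative for FARSA with FARS2 (-1.73 in RAC1i) and for WARS with WARS2 (-1.40), and UMIs of WARS per UMI of WARS2 were 4.31 in DMSO, 1.63 in RAC1i and 1.53 in Combo. It was most positive for SARS with SARS2 (1.58) and RARS with RARS2 (1.01), so that SARS UMIs per SARS2 UMI were 5.09, 15.2 and 18.2.

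The 8 enzymes of the multisynthetase complex did not move as a block. In RAC1i over DMSO the log2 ratios of 7 of them were -2.58 for QARS, -2.47 for EPRS, -0.76 for IARS, -0.53 for LARS, -0.32 for MARS, 0.29 for RARS and 0.35 for KARS. The summed level of the 8 was 819 CPM in DMSO, 530 in RAC1i and 529 in Combo, a ratio of 0.647 and 0.645. That of the 13 cytosolic genes outside the complex was 985, 646 and 664 CPM, a ratio of 0.656 and 0.674. EPRS made up 235, 42.4 and 48.9 CPM of the complex sums, so the likeness of these ratios leans on this gene. Of the scaffold genes AIMP1 was at 90.6, 183 and 192 CPM and EEF1E1 at 95.3, 174 and 154, both higher in the treated libraries, while AIMP2 was at 64.6, 28.6 and 36.1 and lower. By structural class, which rests on the fold of the catalytic domain, the cytosolic medians were -0.53 for class I and -0.46 for class II in RAC1i and -0.49 and -0.33 in Combo (EPRS, which has both folds, left out). The mitochondrial ones were -0.40 and -0.01 in RAC1i and -0.33 and 0.10 in Combo, over 6 measured genes in each class.

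**Figure D3:**
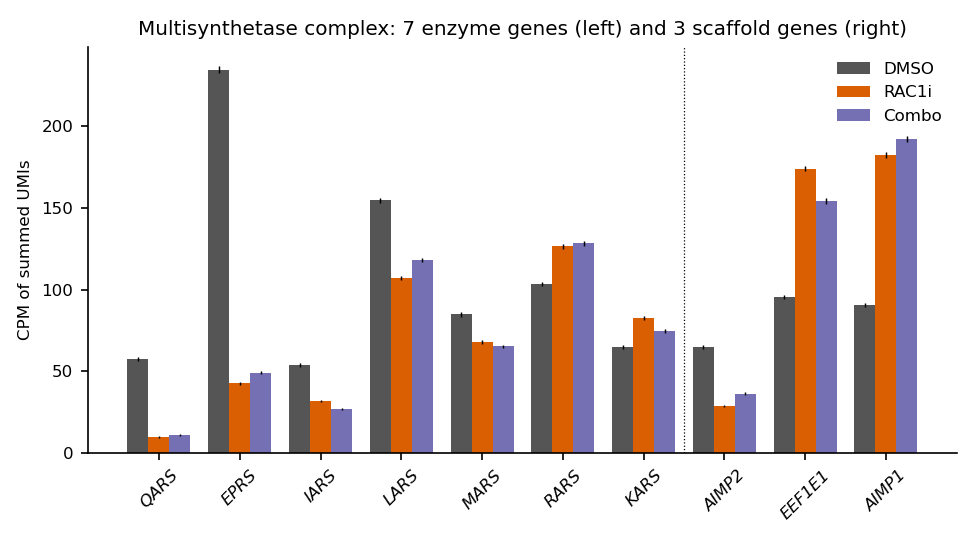
CPM of 7 of the 8 enzyme genes (left of the dotted line) and 3 scaffold genes (right) of the multisynthetase complex in the 3 libraries, with bars from 0 and 95% Poisson intervals that cover counting error only. QARS and EPRS are several-fold lower in RAC1i and Combo, RARS and KARS are higher, and AIMP1 and EEF1E1 are higher while AIMP2 is lower.

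Combo and RAC1i lay close together for the measured members, and the library with GSK126 added to NSC23766 was within 1.5-fold of RAC1i for all 32. At 1.5-fold, 0 of 32 members were higher, against 0.328% of all genes, and 0 were lower, against 0.534%. The median log2 ratio was 0.04 over cytosolic members, 0.02 over mitochondrial ones and 0.02 over all genes, where the middle 50% of genes lay between -0.11 and 0.15. The widest differences were a log2 ratio of 0.26 (0.19 to 0.32) for CARS2, 0.25 (0.22 to 0.28) for SARS and -0.25 (-0.30 to -0.20) for IARS. Below 5 CPM, TARSL2 (0.47, 0.31 to 0.63) and PARS2 (0.52, 0.35 to 0.70) stood higher in Combo, and MARS2 (-0.21, -0.34 to -0.08) stood lower.

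Genes that work beside the synthetases moved in several directions, as counts past 1.5-fold in RAC1i over DMSO show. Of the 4 mitochondrial charging partners, MTFMT, which formylates the initiator methionyl-tRNA, was lower at 15.0, 4.35 and 5.40 CPM, and the GatCAB amidotransferase genes GATB, GATC and QRSL1, which make mitochondrial glutaminyl-tRNA, had log2 ratios of 0.07, -0.37 and 0.13. Of the 3 listed genes of the selenocysteine route, the 2 that were measured were both lower, the elongation factor gene EEFSEC (-2.98) and PSTK (-0.89). Of 4 measured genes for tRNA editing and peptidyl-tRNA release, PTRH2 was higher at 40.4, 185 and 186 CPM, and DTD1 (-1.84) was lower. Elongation factors of the cytosol had a median of -0.30. EEF1A1, which carries charged tRNA to the ribosome, was the 1 of 6 past the size rule (-0.85, from 5804 to 3226 CPM). Of 18 measured genes for tRNA maturation and export, 4 were higher, led by the RNase P subunit gene RPP30 (1.90), and 7 were lower, near the shares of all genes (22.6% higher and 35.8% lower). XPOT, which exports tRNA from the nucleus, was at 69.0 CPM in DMSO, 38.5 in RAC1i and 27.3 in Combo.

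Mitochondrial ribosomal protein genes had a median above that of the mitochondrial synthetases. Of 78 mitochondrial ribosomal protein genes, 24 were higher and 11 lower, against 22.6% and 35.8% of all genes, with a median of 0.20 against -0.18, from -2.34 for MRPL12 to 1.56 for MRPL32. Of 8 measured mitochondrial translation factors, MRRF, the ribosome recycling factor, was higher (1.66), and TSFM (-0.62) and MTIF3 (-0.60) were lower, with a median of -0.12. Among MYC and growth genes, 5 of 6 of which were measured, ODC1 (1.32) and NPM1 were higher and CAD (-0.76) was lower, with a median of 0.10, and MYC itself stood at 12.8, 9.30 and 5.45 CPM.

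Other target genes of ATF4 were found both above and below DMSO. Of the 26 measured genes of a list that held no synthetase, 5 were higher in RAC1i and 15 lower, against 22.6% and 35.8% of all genes, with a median of -1.01. The 5 higher ones were ATF4 itself (160, 797 and 775 CPM in DMSO, RAC1i and Combo), the stress regulators ATF3 (5.36, 120 and 119), DDIT3 (47.1, 351 and 330) and PPP1R15A (18.9, 183 and 177), and the amino acid transporter subunit gene SLC3A2 (184, 473 and 488). The lower ones included SLC7A11, which takes up cystine (26.01, 0.992 and 0.700 CPM), and PHGDH and PSAT1 of serine synthesis (325, 38.9 and 50.5, and 123, 15.3 and 16.5). Split after these values were seen, the 14 measured genes for amino acid enzymes and transporters had a median of -1.70, with 1 higher and 12 lower, and the 12 measured transcription factors and stress regulators a median of 0.41, with 4 higher, 3 lower and 5 within 1.5-fold. The 3 lower regulators were NUPR1 (20.2, 1.70 and 1.37 CPM), DDIT4 (41.3, 14.2 and 21.0) and STC2 (17.0, 8.95 and 6.93). This split is a description, since the genes were grouped with their values known. In Combo over RAC1i CTH had the lowest and DDIT4 the highest ratio of this list (-0.54 and 0.56), both within 1.5-fold.

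Among single cells, synthetase UMIs per 10000 UMIs were lower in RAC1i and Combo from the 10th to the 90th percentile of cells. Cytosolic synthetase UMIs per 10000 UMIs of a cell had medians of 17.7 (DMSO), 10.9 (RAC1i) and 10.997 (Combo), and the 90th percentile in RAC1i (16.9) and Combo (16.7) lay below the DMSO median. For the mitochondrial set the medians were 3.02, 2.21 and 2.25. With each cell thinned at random to 5000 UMIs, the mean was 8.97 cytosolic UMIs in DMSO, 5.63 in RAC1i and 5.64 in Combo, with variances of 12.6, 8.60 and 8.70. The mitochondrial mean was 1.58, 1.15 and 1.15 UMIs, while the 10th percentile, median and 90th percentile were 0, 1 and 3 in every library.

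**Figure D4:**
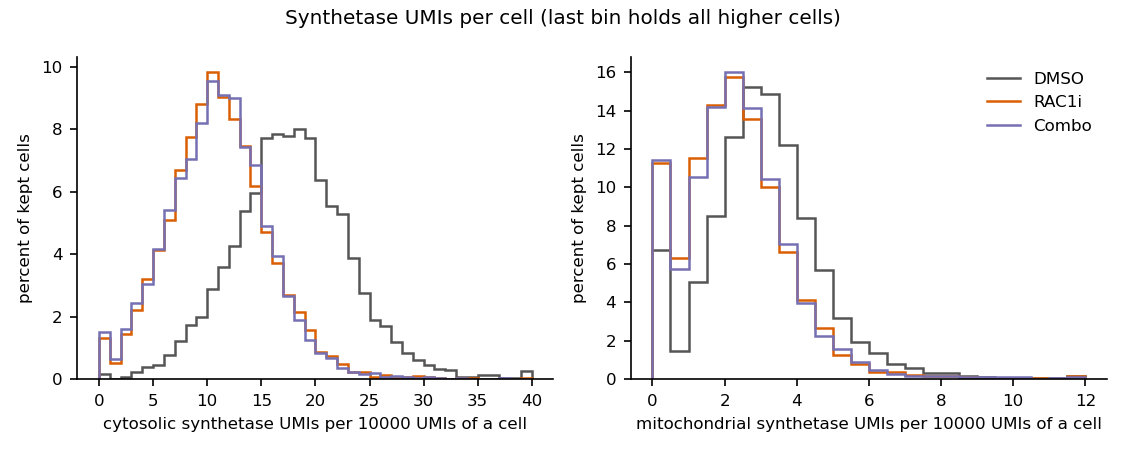
Distribution over kept cells of cytosolic (left) and mitochondrial (right) synthetase UMIs per 10000 UMIs of the cell, as percent of kept cells in each bin. The RAC1i and Combo curves nearly coincide and lie to the left of DMSO, with cytosolic medians of 10.9 and 10.997 against 17.7.

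The difference held within each of the subsets of cells compared. By cell cycle phase, called from S and G2M gene lists, the cytosolic sum was 1778 to 1831 CPM in DMSO, 1155 to 1197 in RAC1i and 1178 to 1216 in Combo. Terciles of the mitochondrial genome share were cut within each library and do not hold that share equal between libraries. Their medians ran from 1.14% to 9.04% in DMSO, from 0.838% to 3.77% in RAC1i and from 0.810% to 3.83% in Combo. By these terciles the cytosolic sum was 1723 to 1856, 1161 to 1197 and 1135 to 1210 CPM. It was lowest in cells under 10000 UMIs, at 1636, 931 and 913 CPM, and highest in cells over 25000 UMIs, at 1817, 1226 and 1250. In each of these subsets DMSO stood above both treated libraries.

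Within DMSO the cytosolic synthetases were higher in cells with more UMIs of the other ATF4 targets. Cells thinned to 5000 UMIs were ordered by their UMIs of the ATF4 list, which holds no synthetase, and cut into 4 bins of equal number. The split planned first, by the share of the list in all kept cells without thinning, ran the same way for the cytosolic sum. Its cytosolic sums were 1495, 1671, 1858 and 2136 CPM in DMSO, a ratio of highest to lowest of 1.43 (1.42 to 1.44). The mitochondrial ratio there was 1.03 (1.01 to 1.06). In that split the intervals of WARS2, TARS2, YARS2, CARS2 and SARS2 lay above 1, and that of IARS2 lay below 1. After thinning the values were as follows. From the lowest to the highest bin the cytosolic sum was 1564, 1727, 1840 and 2045 CPM in DMSO, a ratio of highest to lowest of 1.31 (1.28 to 1.34), while the mitochondrial sum was 318, 307, 322 and 318 CPM (ratio 0.999, 0.946 to 1.05). GARS had the highest ratio among measured cytosolic members, at 2.09 (1.90 to 2.29), from 77.8 to 162 CPM. YARS (1.92), IARS (1.63), CARS (1.61) and WARS (1.60) followed. In thinned cells the interval lay above 1 for 12 of the 20 measured cytosolic members and for 0 of the 12 mitochondrial ones, against 16.0% of all genes. It lay below 1 for 0 and 1 (IARS2, 0.903, 0.818 to 0.995), against 6.35%. An interval clears 1 more readily at higher counts, so these counts are not on equal terms. Median levels in DMSO were 61.0 CPM over cytosolic members, 16.5 over mitochondrial ones and 26.3 over all genes. The median ratio was 1.23 over cytosolic members, 0.998 over mitochondrial ones and 1.04 over all genes. FARSB (0.971) and QARS (0.990) were lowest, with intervals that held 1. Without thinning QARS was at 0.993 (0.940 to 1.05), but FARSB at 1.11 (1.01 to 1.21) and AARS at 1.42 (1.26 to 1.60). In thinned cells the 6 members with TGATGCAA in their window had ratios from 1.08 (AARS) to 1.63 (IARS) with a median of 1.34. The 10 cytosolic members with a window without it had a median of 1.08, with GARS the highest. The medians with and without it were 0.888 and 0.859 in RAC1i and 0.822 and 0.853 in Combo, so the order of these groups was not the same in every library.

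The order was the opposite in both treated libraries. From the lowest to the highest bin the cytosolic sum was 1212, 1136, 1105 and 1054 CPM in RAC1i and 1229, 1137, 1077 and 1070 in Combo, a ratio of 0.870 in each (0.849 to 0.891 and 0.847 to 0.894). The mitochondrial sum also stood lower, with ratios of 0.868 and 0.891. Without thinning, over all kept cells, the cytosolic ratio was 0.825 (0.816 to 0.834) in RAC1i and 0.829 (0.819 to 0.839) in Combo. Most genes did so in these libraries, with a median ratio over all genes of 0.889 in RAC1i and 0.891 in Combo, beside 0.863 and 0.875 over cytosolic and 0.877 and 0.884 over mitochondrial members. The interval lay below 1 for 12 cytosolic and 2 mitochondrial members in RAC1i, against 42.6% of all genes, and for 10 and 3 in Combo, against 40.5%, and it lay above 1 for 1 and 0 members, against 21.5%, and for 2 and 1, against 21.1%. The cytosolic medians of RAC1i and Combo thus lay close to those of all genes, and nothing there is read as particular to the synthetases. EPRS had a ratio of 0.547 (0.478 to 0.626) in RAC1i and 0.441 (0.377 to 0.515) in Combo, where it was 1.33 in DMSO. VARS went the other way, at 1.49 (1.27 to 1.74) and 1.39 (1.17 to 1.64). The difference between libraries in this order was not tested, and the depth of the cells moved with it. Before thinning the median UMIs of the lowest and highest bin were 26857 and 30404 in DMSO, 24966 and 20289 in RAC1i, and 30645 and 23974 in Combo, and the part of depth in the result was not tested.

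The order in the treated libraries depended on which ATF4 targets were used. The parts of the list also differed in weight between libraries. Its amino acid enzymes and transporters summed to 1267 CPM in DMSO, 812 in RAC1i and 820 in Combo. Its transcription factors and stress regulators summed to 577, 1787.5 and 1722 CPM, so the bins of the whole list did not weigh the same genes in each library. With amino acid enzymes and transporters alone, a split made after the first result was seen, the cytosolic sum was higher in the highest bin in all 3 libraries, from 1575 to 2019 CPM in DMSO, 1024 to 1223 in RAC1i and 1033 to 1188 in Combo. The mitochondrial sum ran alike in the treated libraries, with a ratio of highest to lowest of 1.15 (1.09 to 1.22) in RAC1i and 1.14 (1.08 to 1.22) in Combo beside cytosolic ratios of 1.195 and 1.15, and with 1.04 in DMSO beside 1.28. The median ratio over all genes was 1.045, 1.07 and 1.05 in DMSO, RAC1i and Combo. By this per-gene measure the medians were 1.19, 1.21 and 1.10 over cytosolic members and 1.07, 1.19 and 1.21 over mitochondrial ones. In Combo the mitochondrial median was thus the higher. With transcription factors and stress regulators alone the cytosolic sum ran from 1685 to 1916 CPM in DMSO, but from 1272 to 1019 in RAC1i and from 1274 to 1034 in Combo. The mitochondrial ratio of highest to lowest was 0.933 (0.884 to 0.985), 0.802 and 0.8255 in DMSO, RAC1i and Combo, beside cytosolic ratios of 1.14, 0.801 and 0.811. The median ratio over all genes was 1.02, 0.857 and 0.858 in the 3 libraries. Per-gene medians were 1.13, 0.79 and 0.792 over cytosolic members and 0.954, 0.793 and 0.808 over mitochondrial ones. The median cell depth again moved with the bin, in RAC1i from 18562 to 26165 UMIs for the first list and from 26216 to 18383 for the second.

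**Figure D5:**
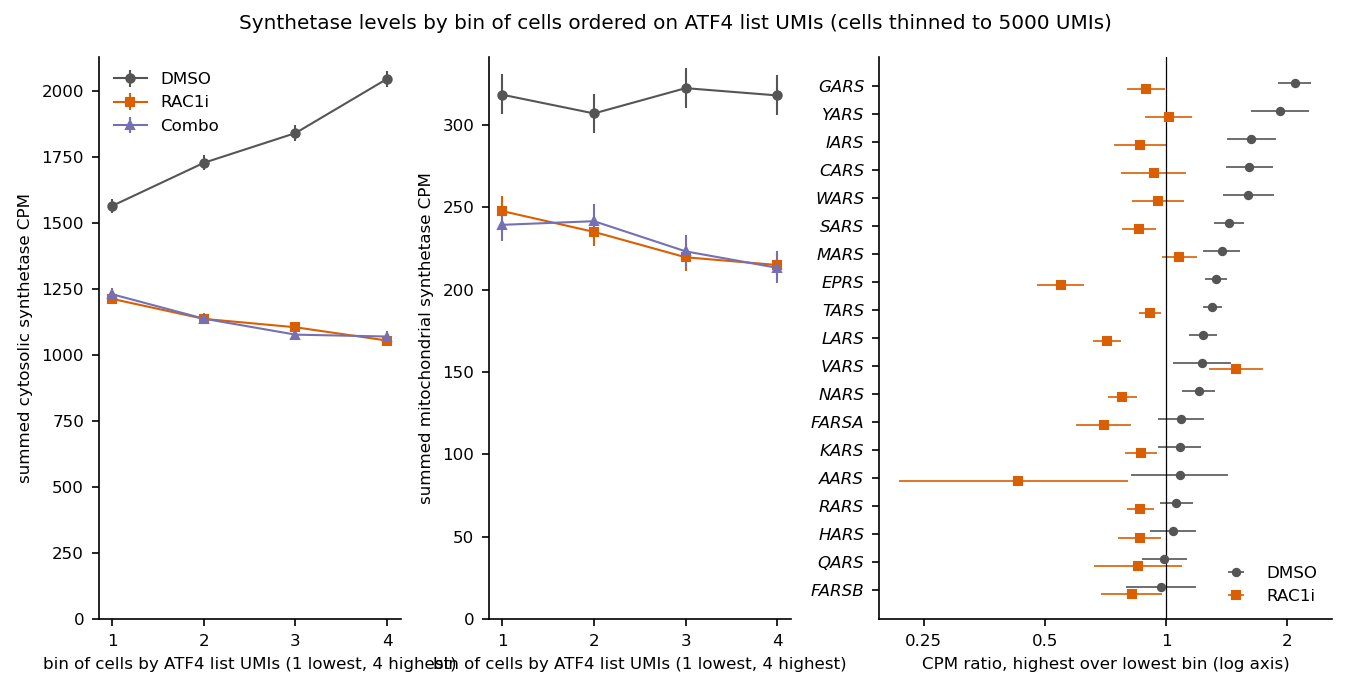
Cytosolic (left) and mitochondrial (middle) synthetase CPM by bin of cells ordered on UMIs of ATF4 targets that are not synthetases, in cells thinned to 5000 UMIs, and the ratio of highest to lowest bin for 19 of the 20 measured cytosolic members (right, log axis, DMSO and RAC1i), with 95% intervals that cover counting error only. The cytosolic sum goes from 1564 to 2045 CPM in DMSO and from 1212 to 1054 in RAC1i, and most members lie right of 1 in DMSO and left of it in RAC1i.

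Outside the set, the 5 genes whose levels over the 3 libraries were most like the median cytosolic synthetase (by Euclidean distance of log2 CPM centred on each gene) were COPS7A, SLC30A5, SOS2, ALDH3A2 and JUP. Their log2 ratios in RAC1i over DMSO were -0.49, -0.50, -0.52, -0.50 and -0.51. With 3 libraries many genes share such a pattern.

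Some members share bases with other counted genes. HARS overlaps DND1, EARS2 overlaps GGA2, HARS2 overlaps ZMAT2 and YARS2 overlaps 2 long noncoding RNA genes on the same strand, and MARS2 lies whole within AC011997.1, so their counts are uncertain by the reads that fall there. In all 21 members overlap a gene on the opposite strand, among them MARS with DDIT3 over 982 bases and HARS with HARS2 over 108, which a stranded 3′ assay keeps apart. AARS (chr16:70251983-70289707), QARS (chr3:49095932-49105130), EPRS (chr1:219968600-220046530) and SARS2 (chr19:38915266-38930763), placed on GRCh38 by GENCODE 44, have no such overlap on the same strand.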

How the data were processed

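The deposited values are whole-number counts of UMIs per gene and cell barcode for 3 libraries, made by the authors with Cell Ranger (4.0.0 in the submitters' processing notes) on GRCh38 and not normalized or filtered on cells after that. Single-cell 3′ libraries hold 1 tag per molecule. What follows was computed here from those counts. The limits on cells were those in the methods of the study, which are more than 1000 genes, a mitochondrial share of up to 20% and a complexity (log10 genes over log10 UMIs) above 0.8. No doublet was removed. UMIs were summed per library and scaled to CPM. Intervals (95%) are exact Poisson for a CPM and exact conditional for a ratio, and cover counting error only. With 1 library a condition no test between conditions was run, and genes are counted by a size of 1.5-fold over the 9745 genes with a mean of at least 5 CPM. A gene at 0 in a library was set to a floor of 3 counts, which touched 1 gene. The 4 bins were cut on cells thinned to 5000 UMIs, with shallower cells left out, an alternative chosen after seeing the data. The plan named the share of UMIs in all kept cells, and its ratios are given beside. Members and gene lists were chosen with earlier results of these data known. A few genes that the naming rule covers are not reported here. The text otherwise names all members, the scaffold and charging partner genes, and of each other list the largest rise and fall in RAC1i over DMSO and in Combo over RAC1i. ATF4, DDIT3, PPP1R15A, SLC3A2, PHGDH, PSAT1, PSTK, NUPR1, STC2, NPM1, TSFM, XPOT, KRT7, MUC16, WT1, PAX8 and COL1A1 were named after their values were seen where that rule does not name them. Alternatives were other cell filters, TMM factors (edgeR 4.0.16), size factors (DESeq2 1.42.0), a total without mitochondrial genes, means over cells, thinning, a range of depth, other minimum levels and other fold sizes. Intervals and fold calls were tested on simulated Poisson counts, which hold no spread between cells or cultures. Python 3.11.15, numpy 2.4.6, scipy 1.17.1 and R 4.3.3 were used.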

Additional observations from a re-analysis of the deposited data

Results flagged for a closer look

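The summed level of the cytosolic synthetases ran in opposite orders within the libraries when cells were ordered by UMIs of the other ATF4 targets. In DMSO the UMIs of that list were mostly of amino acid enzymes and transporters (1267 CPM, against 577 of transcription factors and stress regulators). In RAC1i and Combo they were mostly of transcription factors and stress regulators (1787.5 and 1722 CPM, against 812 and 820). The bins therefore weighed different genes in DMSO than in the treated libraries. The CPM of the highest of 4 bins of cells over that of the lowest was 1.31 for DMSO cells and 0.870 for RAC1i cells, and 0.870 for those of Combo. The median ratio over all genes was 1.04, 0.889 and 0.891, so all genes together turned the same way. The median over measured cytosolic members was 1.23, 0.863 and 0.875, and in RAC1i and Combo nothing is read as particular to the synthetases. In DMSO, with cells thinned, the interval lay above 1 for 12 of 20 cytosolic and 0 of 12 mitochondrial members, against 16.0% of all genes. An interval clears 1 more readily at higher counts, and cytosolic members were the more abundant, so these counts are not on equal terms. Without thinning, the mitochondrial sum had a ratio of 1.03 (1.01 to 1.06) in DMSO. The intervals of WARS2, TARS2, YARS2, CARS2 and SARS2 then lay above 1. With the amino acid enzymes and transporters of the list alone, the ratio of cytosolic sums was above 1 in all 3 libraries, at 1.28, 1.195 and 1.15. The ratios of mitochondrial sums were 1.04, 1.15 and 1.14. Per-gene medians were 1.19, 1.21 and 1.10 over cytosolic members, 1.07, 1.19 and 1.21 over mitochondrial ones and 1.045, 1.07 and 1.05 over all genes. The opposite order thus holds for the whole list and for its transcription factors and stress regulators. The difference between libraries was not tested, since each condition was 1 library, and the depth of the cells moved with the bins.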

How the results depend on the processing

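Of the 32 measured members, 14 were lower by 1.5-fold in RAC1i over DMSO and 2 higher, and 14 and 2 in Combo over DMSO. The lower counts were 9 with TMM and 9 with DESeq2 size factors in both comparisons, and 5 and 6 at a fold of 2. The higher counts were 5 at the smaller fold tried in both comparisons, 1 with cells thinned to 5000 UMIs in both, 0 at a minimum of 20 CPM in both, 0 at a fold of 2 in both, and 0 in RAC1i over DMSO with a mean over cells. The fewer genes that a higher minimum or a larger fold admits are built into those settings. TMM and DESeq2 size factors move all log2 ratios of a comparison by the same amount, so members near the cut change sides with them. For cells thinned or averaged the cause was not tested. The other alternatives left these counts within 1.5 times, and those of Combo over RAC1i at 0. The cytosolic median ranged over its alternatives from -0.64 to -0.39 in RAC1i over DMSO and from -0.58 to -0.29 in Combo over DMSO, below 0 in each. The mitochondrial median ranged from -0.73 to 0.05 and from -0.65 to 0.06. No paired analysis was possible because each condition was 1 library and the labels carry no replicate numbers. With 1 library a condition, counting error is known but the spread between cultures is not.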
